A study of Mus musculus with 19 samples.

Results

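The genes for the cytosolic ribosomal proteins were examined in type 1 conventional dendritic cells (DC1) sorted from mouse lymph nodes and spleen and measured on Affymetrix arrays. A gene was counted as a member when the array annotation gave its probe set a single symbol made of Rpl or Rps, a number and at most a closing a, x, y or l. Each gene was read from its probe set with the highest mean intensity. The rule itself uses no comparison between samples, although it was chosen with earlier results of these data known. It found 55 of 19938 genes in the table from skin-draining lymph nodes (SDLN) and 60 of 22180 genes in the table from spleen. Of these members 46 were in both tables and 69 in either.

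All mice were on the C57Bl/6j background. The SDLN mice all carried Irf8VENUS, a fluorescent reporter of the transcription factor gene Irf8, in either a wild-type (WT) or a Batf3-/- background, Batf3 being a gene whose product DC1 need for their development. Their DC1 were split by sorting into resident cells, with intermediate MHC class II and high CD11c, and migratory cells, with high MHC class II and intermediate CD11c. There were 3 arrays of WT resident DC1, 2 of WT migratory DC1, 3 of Batf3-/- resident DC1 and 3 of Batf3-/- migratory DC1. In spleen, taken from female mice, the Irf8VENUS- group was WT and had 2 arrays, and the Irf8VENUS+ groups were WT and Batf3-/-, each with 3. SDLN cells were sorted as CD24+ and CD172-. The labels list the spleen cells as CD172a+, a marker more usual on other conventional dendritic cells than on DC1, and do not say whether this is a slip. Spleen cells were gated on CD24 and XCR1, except replicate 3 of both Irf8VENUS+ groups, which was gated on CD24 alone. Whether replicate arrays stand for different mice is not in the labels, so each p-value measures the spread between these arrays. The comparisons asked how migratory DC1 differ from resident DC1 and what the loss of Batf3 changes. Resident and migratory DC1 are separately sorted populations, not the same cells before and after migration. A rise, a fall or a change on migration below names the difference between them, and migration cannot be told apart from their other differences.

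A ribosome joins a small subunit, which reads the mRNA, to a large subunit, which makes the peptide bond, and nearly every ribosomal protein is present once in each ribosome. Ribosomal protein mRNAs are among the most abundant in a cell, and many begin with a C followed by a run of pyrimidines, the 5′ terminal oligopyrimidine (TOP) tract, through which the kinase mTOR and the RNA-binding protein LARP1 set their translation. Dendritic cells that mature and migrate are known to change their protein synthesis in step with antigen presentation. The mammalian genome also holds many processed copies of ribosomal protein genes, so a probe set of a member can take up signal from near-identical copies, and each member value below is uncertain in that respect.

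Start-site sequences are shown for members that changed on migration, because the TOP tract is the feature these mRNAs are known to share. A tract was searched on the gene's own strand as a C followed by at least 6 bases of C or T that started within 10 bases of an annotated RefSeq start (GRCm38.p6). It was found in 25 of 54 members with a promoter entry and, counted by promoter, in 39.1% of 64 member promoters against 12.2% of all 32851 promoters. Each line gives 15 bases before and 15 from the annotated start, 5′ to 3′, with the tract in capitals. The first group fell on migration in WT and Batf3-/- DC1.
Rpl14, chr9:120571502-120571531, plus strand: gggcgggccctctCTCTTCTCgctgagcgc
Rpl28, chr7:4792950-4792979, plus strand: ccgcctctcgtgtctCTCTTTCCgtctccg
Rpl4, chr9:64173372-64173401, plus strand: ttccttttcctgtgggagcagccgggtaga
Rps3, chr7:99483695-99483724, minus strand: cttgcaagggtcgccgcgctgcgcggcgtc
The next group rose on migration, Rps27l in both genotypes and the others in WT.
Rps27l, chr9:66946071-66946100, plus strand: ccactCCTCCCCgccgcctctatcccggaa
Rpl38, chr11:114668565-114668594, plus strand: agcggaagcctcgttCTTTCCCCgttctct
Rpl24, chr16:55966260-55966289, plus strand: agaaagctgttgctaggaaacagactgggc
Rpl41, chr10:128549154-128549183, minus strand: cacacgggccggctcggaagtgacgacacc
Rps6, whose protein is the classic target of the kinases below mTOR, did not pass the test in any comparison and is shown for contrast.
Rps6, chr4:86857353-86857382, minus strand: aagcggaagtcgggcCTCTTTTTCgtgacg
A stretch that met the search was found in Rpl14, Rpl28, Rps27l, Rpl38 and Rps6, and none was found in Rpl4, Rps3, Rpl24 or Rpl41. In Rps27l it starts 10 bases before the annotated start and ends before it. It thus lies outside the annotated mRNA, and another annotated Rps27l start had none. The Rpl4 line does hold a run of pyrimidines after a C, farther than 10 bases before the start. The search depends on the annotated start, so a miss does not show that the mRNA lacks a TOP tract. Members with and without a stretch found in this way fell, and members with and without one rose. Among SDLN members with an entry, 2 of 8 that fell in WT had a tract, as had 4 of 6 that rose and 13 of 28 that did neither. The 4 include Rps27l and also Rpl39l, which passed the intensity filter given below only through migratory arrays. No contrast between members that rose and fell is drawn from these counts.

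The arrays followed their labels for the targeted gene. Batf3 ranged from 8.15 to 9.23 log2 units on the 5 WT arrays of the SDLN and from 5.50 to 6.17 on the 6 Batf3-/- arrays, and from 9.42 to 10.41 against 5.29 to 7.08 in spleen. The DC1 markers Xcr1 and Clec9a were high in resident cells, at 9.53 to 11.34 and 10.06 to 10.47, and lower in migratory cells, at 5.83 to 8.07 and 6.26 to 7.68. The SD of an array over all its probe sets was 2.16 to 2.23 log2 units on the resident SDLN arrays, 1.96 and 2.03 on the WT migratory arrays, and 2.16, 2.15 and 2.07 on the Batf3-/- migratory arrays, against 1.96 to 2.01 in spleen. The WT migratory arrays thus spread least in the SDLN table. RMA usually brings arrays to a common distribution, and whether the deposited SDLN arrays were normalized together is not stated. Of 7 named B cell markers 6 rose on migration in WT, where their summed linear intensity was 492 to 633 against 186 to 237 in WT resident cells, and it was 226 to 277 and 239 to 460 in Batf3-/- resident and migratory cells. Of 8 named T cell markers 4 rose in WT, and no marker of either list passed on migration in Batf3-/- cells. The part of such cells, or of the array spread, in the member changes below was not tested beyond the settings given with them.

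Members were bright on both array types. In the SDLN, 47 of 55 lay among the 10% brightest genes and 40 among the brightest 1%, and the median member read 11.71 log2 units. In spleen, 34 of 60 lay among the 10% brightest, 29 among the brightest 1%, and the median was 10.1. The highest SDLN means were those of Rps14 (13.04), Rps12 (12.96) and Rps21 (12.95), proteins of the small subunit. The lowest were Rpl10l (3.45), Rpl39l (3.95) and Rpl3l (4.13), copies known for use in male germ cells or striated muscle rather than in most tissues. In spleen Rps18 (12.75), Rpl41 (12.58) and Rpl28 (12.48) read highest, and Rpl32l (1.99), Rpl10l (2.36) and Rpl3l (4.18) lowest. Brightness depends on the probes as well as on the RNA, and single genes moved far between the array types. Rps29, for example, read 12.69 in SDLN and 4.88 in spleen, and Rps14 13.04 and 6.01. A level is therefore read here only against the same probe set on other arrays.

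Genes entered the tests if 2 or more arrays were at or above the median intensity of their table, a filter that kept 53 of 55 SDLN members and 56 of 60 spleen members. Rpl10l and Rpl3l were too dim in both tables, and Rpl32l and Rps29 also in spleen. Values below are log2 intensities, changes are differences of log2 values from limma with their standard error (SE), and a gene is said to rise or fall when its p-value, adjusted over all genes tested in the table (Benjamini-Hochberg), was under 0.05.

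In WT mice, migratory DC1 differed from resident DC1 in 16 of 53 members, of which 7 rose and 9 fell, where 49.2% of all genes tested passed the same threshold, 16% higher and 33.2% lower. The median member change was 0.05, against -0.16 for all genes tested and -0.30 for the 10% brightest. Most members moved little: the median size of a change was 0.15, and 9 members moved by more than 0.5. Among the 7, Rpl39l passed the intensity filter only through migratory arrays, so its call supports nothing here. In the large subunit 6 of 32 members rose and 6 fell, and in the small subunit 1 of 21 rose and 3 fell. WT migratory replicate 1 held the highest value of 19 members, and fewer members rose without it. Leaving out 1 array at a time gave median member changes of 0.02 to 0.07.

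The members that fell most in WT were large-subunit proteins. Rpl14 read 10.48, 10.47 and 10.38 on the WT resident arrays and 9.65 and 9.66 on the migratory arrays, a change of -0.79 (SE 0.13, adjusted p = 0.000375 in limma). Rpl4, which lines the tunnel through which the new peptide leaves, read 12.45, 12.58 and 12.48 in resident and 11.81 and 11.93 in migratory cells, a change of -0.63 (SE 0.09). Rpl8, which lies by the peptidyl transferase centre, read 12.14, 12.21 and 12.16 and then 11.49 and 11.65, a change of -0.60 (SE 0.09). In each of these genes the resident arrays lay together and every migratory array was below them. Rpl28 went from 11.98, 11.91 and 11.91 to 11.43 and 11.36 (change -0.54, SE 0.10). Rpl10, which joins late in the making of the large subunit, went from 12.38, 12.41 and 12.38 to 11.90 and 11.92 (change -0.48, SE 0.09). Rpl6 fell by 0.37 (SE 0.08). In the small subunit, Rps2 and Rps3, which sit at the mRNA entry site, fell by 0.50 (SE 0.09) and 0.43 (SE 0.11), and the X-linked Rps4x fell by 0.34 (SE 0.09). The groups did not overlap in any of these 9 genes. Over all 11931 genes tested, migratory arrays lay wholly below in 5278 and wholly above in 3113, so such separation was common.

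The members that rose in WT included several small proteins and copies. Rps27l, a copy of Rps27 known as a target of p53, read 10.70, 10.50 and 10.51 in resident and 11.47 and 11.08 in migratory DC1, a change of 0.71 (SE 0.14, adjusted p = 0.00151 in limma). Rpl36 read 10.28, 10.17 and 10.16 and then 10.96 and 10.77, a change of 0.66 (SE 0.16). Rpl24, part of a bridge between the subunits, read 10.24, 10.08 and 9.99 and then 10.63 and 10.54, a change of 0.48 (SE 0.14). All migratory arrays lay above all resident arrays in these genes, which held for 3113 of 11931 genes tested. Rpl41, the smallest ribosomal protein, rose by 0.35 (SE 0.11), and Rpl38, known for the translation of Hox mRNAs, by 0.28 (SE 0.11). Rpl32l rose by 0.63 (SE 0.22). Rpl39l, a copy of Rpl39 best known from male germ cells, differed by 1.67 (SE 0.42). It was dim, at 3.45, 3.13 and 3.14 in resident and 5.68 and 4.13 in migratory cells, and passed the intensity filter only through 2 migratory arrays, 1 of them Batf3-/-.

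**Figure D1:**
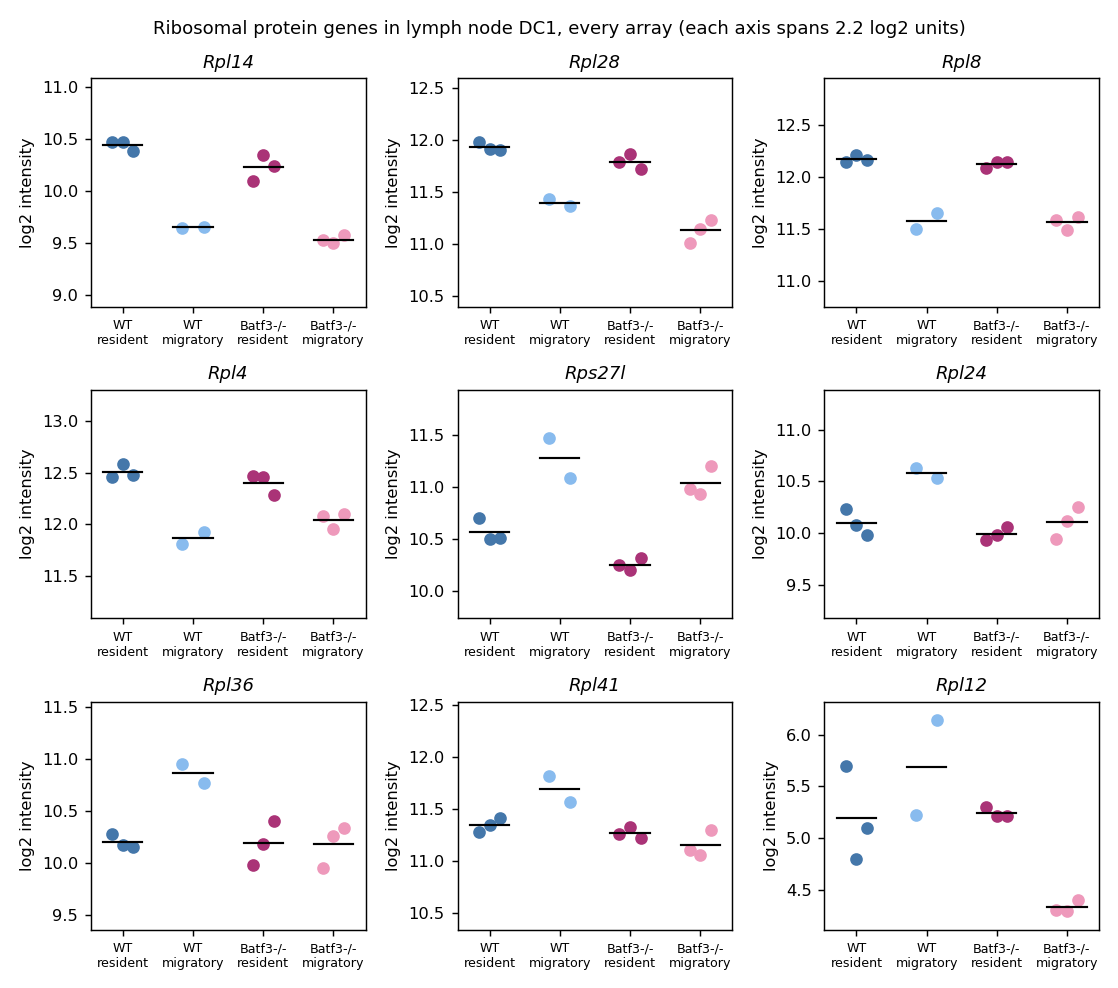
Log2 intensity (vertical axes) of 9 ribosomal protein genes on every SDLN array, with resident and migratory DC1 of WT and Batf3-/- mice along the horizontal axes; points are arrays and black bars group means. Rpl14, Rpl28, Rpl8 and Rpl4 are lower in migratory than in resident cells of both genotypes, Rps27l is higher in both, and Rpl24, Rpl36 and Rpl41 are higher in WT migratory cells than in every other group.

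In Batf3-/- mice, migration went with changes in 13 of 53 members, 1 higher and 12 lower, where 36.6% of all genes tested passed, 14.1% higher and 22.6% lower. The median member change was -0.04, against -0.02 for all genes and -0.10 for the 10% brightest. Rpl14 read 10.10, 10.35 and 10.24 on the Batf3-/- resident arrays and 9.52, 9.50 and 9.58 on the migratory arrays (change -0.70, SE 0.12). Rpl28 read 11.79, 11.86 and 11.72 and then 11.01, 11.15 and 11.23 (change -0.66, SE 0.09, the smallest adjusted p of a member, 7.1e-05 in limma). Rpl8 read 12.08, 12.14 and 12.14 and then 11.59, 11.49 and 11.61 (change -0.56, SE 0.08). Every migratory array was below every resident array in these 3 genes, as in WT. Rps25, known for initiation at internal entry sites, went from 11.75, 11.81 and 11.83 to 11.42, 11.12 and 11.07 (change -0.59, SE 0.10). Rpl12, at the base of the stalk that recruits elongation factors, was dim and went from 5.30, 5.22 and 5.22 to 4.31, 4.30 and 4.41 (change -0.91, SE 0.24). All its Batf3-/- migratory arrays lay below the filter level of 4.82. Rpl12 thus passed the intensity filter only through the groups where it was higher, and its call supports nothing here. Rps29, Rpl10a, Rpl6, Rpl4, Rps3, Rpl10 and Rps18 fell by 0.38, 0.37, 0.36, 0.36, 0.35, 0.29 and 0.24. Of these 7 only Rpl10a had overlapping groups. Over all 11931 genes tested, Batf3-/- migratory arrays lay wholly below the resident arrays in 3194. The calls of Rps18 and Rpl10a were the least stable, lost in 12 and 10 of 16 alternatives, with changes as small as -0.072 (adjusted p = 0.724 in limma) and -0.21 (adjusted p = 0.366). With the title code as a block 12 members passed, and Rps18 did not (adjusted p = 0.0571 in limma). The share of all genes passing in that fit is not given here. Rps27l read 10.24, 10.20 and 10.31 in resident and 10.98, 10.93 and 11.21 in migratory cells, the single member that rose (change 0.79, SE 0.13). Rpl39l was at 3.49, 3.43 and 3.75 and then 3.81, 4.18 and 5.27, a difference of 0.86 (SE 0.38) that missed the threshold (adjusted p = 0.0956 in limma).

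Set side by side, 7 members fell in both genotypes: Rpl14, Rpl28, Rpl8, Rpl4, Rpl6, Rpl10 and Rps3. They are 77.8% of the 9 that fell in WT and 58.3% of the 12 that fell in Batf3-/- cells. Over all genes tested, 2307 fell in both, which are 58.2% of those that fell in WT and 85.6% of those that fell in Batf3-/- cells. Rps27l, the single member that rose in both, is 14.3% of the 7 that rose in WT, beside 51.9% over all genes. Across the 53 members the changes in the 2 genotypes had a Pearson correlation of 0.69 and a Spearman correlation of 0.62. These points are genes of the same 11 arrays, which are not independent. The sign was the same in 33 of 53. The WT change was above the Batf3-/- change in 36 of 53, and in 4579 of 11931 genes tested, so members leaned the other way from the whole table. No value over all genes is given here for the correlations or the shared sign.

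No member differed between the genotypes in its change on migration, as tested by the interaction in limma, where 1.24% of all genes passed. At an unadjusted p under 0.05 there were 7 members, 2 with a higher and 5 with a lower change in Batf3-/- cells, beside 19.2% of all genes. The nearest to the threshold was Rpl12, whose change was lower in Batf3-/- cells by 1.39 on the log2 scale (estimate -1.39, SE 0.35, adjusted p = 0.0744). Since Rpl12 passed the intensity filter only through groups other than Batf3-/- migratory cells, its place here supports nothing. The next were Rpl36 (-0.67, SE 0.22, adjusted p = 0.132) and Rpl41 (-0.47, SE 0.15, adjusted p = 0.137), which rose in WT and whose Batf3-/- groups overlapped. Rps2 (0.35, SE 0.12) and Rpl4 (0.28, SE 0.12) had the opposite sign, with smaller falls in Batf3-/- cells. Without Batf3-/- migratory replicate 3 the interaction passed in 6 members, all with a lower change in Batf3-/- cells, and without WT resident replicate 1 in 1. How many of all genes passed in those fits is not given here.

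**Figure D2:**
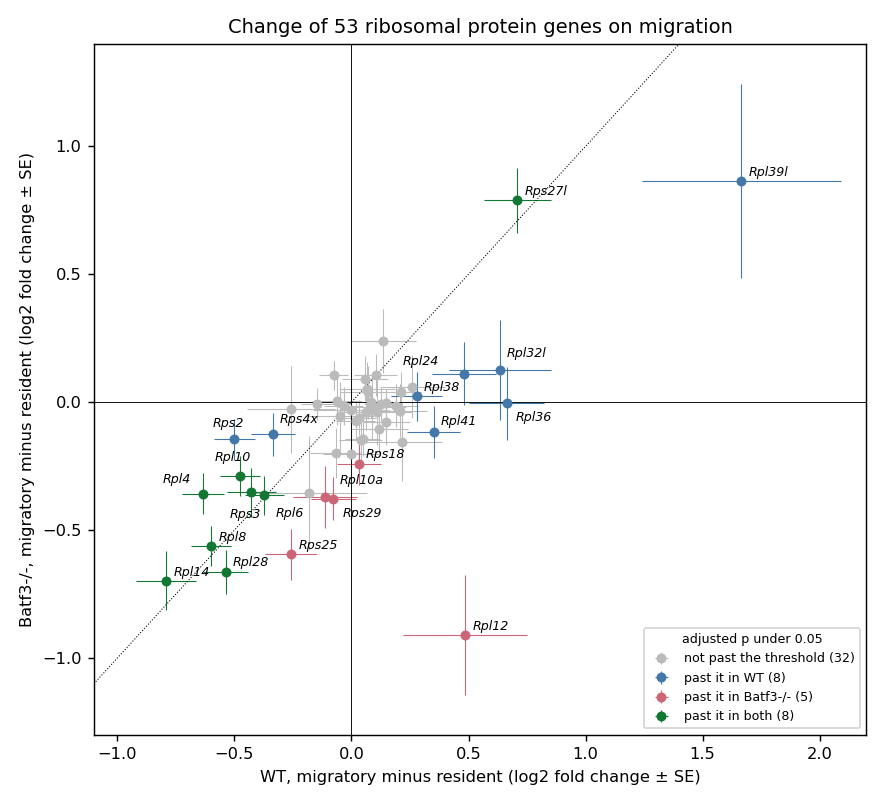
Log2 fold change of each of 53 members between migratory and resident DC1 in WT (horizontal axis) and Batf3-/- mice (vertical axis), with bars of 1 SE from limma; colour gives the genotype in which the adjusted p was under 0.05 and the dotted line is equality. Rpl14, Rpl28 and Rpl8 lie low in both genotypes and Rps27l high in both, while Rpl12 lies apart, with a fall of 0.91 in Batf3-/- cells and overlapping groups in WT. Rpl12 passed the intensity filter only through groups other than Batf3-/- migratory cells.

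The changes of the members in WT moved with the spread of the arrays. With each array scaled to 1 common SD, 35 members rose and 1 fell in WT and the median member change was 0.60, against -0.17 for all genes. With the array SD as a term of the fit, no member passed in limma, the median was -0.25, and the median SE of a member was 0.23 in place of 0.11. Quantile and cyclic loess normalization both gave 15 members that rose and 7 that fell, with medians of 0.17 and 0.16. In WT the direction of most members therefore depended on how arrays were brought to a common scale. How many of all genes passed under each setting is not given here, so these counts do not set members apart from the whole table. Of the 9 that fell, Rpl14, Rpl4 and Rpl8 stayed below 0 under every setting tried, but Rpl4 and Rpl8 came as near to 0 as -0.032 (adjusted p = 0.825 in limma) and -0.028 (adjusted p = 0.851). Rpl14 read -0.41 with scaled arrays (adjusted p = 0.0258) and lost its call with the array SD as a term (-0.82, adjusted p = 0.0796). Of the 7 that rose, Rpl24 stayed above 0, at the least at 0.051 (adjusted p = 0.933). In Batf3-/- cells, whose arrays differed less in SD, the scaled arrays gave 2 higher and 5 lower and the fit with array SD 1 higher and 13 lower. Rpl14, Rpl28, Rpl8, Rps25 and Rps27l passed there in all 16 alternatives that were run. The fall of Rpl14 and the rise of Rps27l on migration of Batf3-/- DC1 ranged from -0.76 to -0.59 and from 0.55 to 0.91 over those alternatives.

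**Figure D3:**
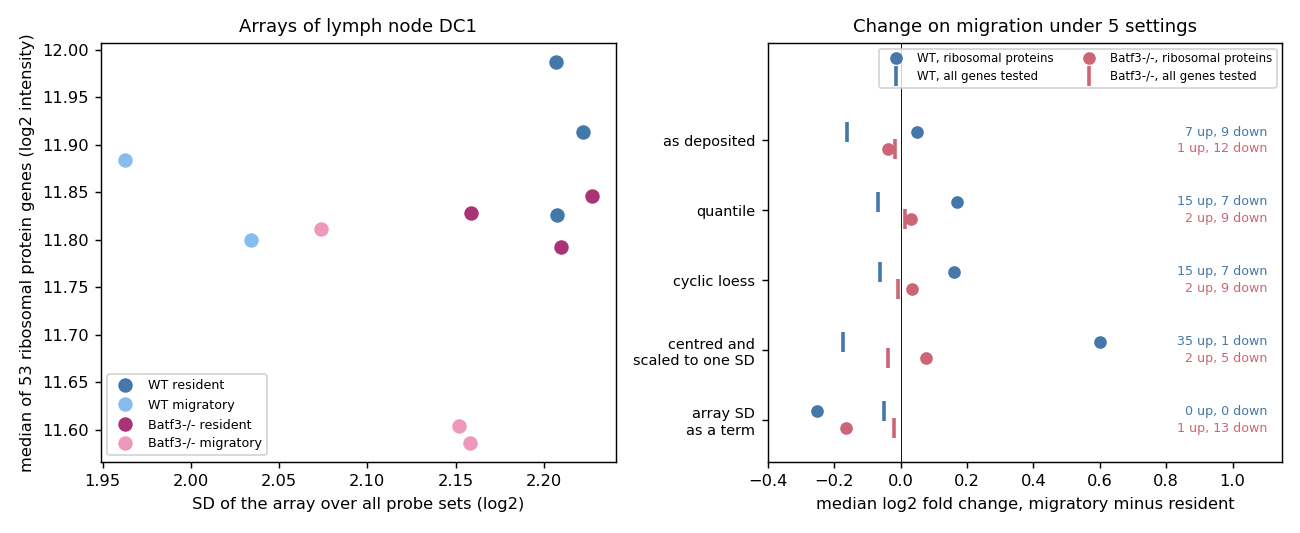
Left, the median log2 intensity of 53 members on each SDLN array (vertical axis) against the SD of that array over all probe sets (horizontal axis), coloured by group. Right, the median change on migration of the members (points) and of all genes tested (ticks) under 5 settings, with the number of members that rose and fell. The WT median runs from -0.25 with array SD as a term to 0.60 with arrays scaled to 1 SD, and the Batf3-/- median from -0.16 to 0.08.

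For the members called on migration, different probe sets of a gene gave the same direction. Of the 16 members called on migration in WT 9 had several probe sets that could be tested, as had 7 of 13 in Batf3-/- cells, and all their probe sets shared the sign. The 9 probe sets of Rpl36 ranged from 0.55 to 0.73 in WT, and the 5 of Rpl28 from -0.61 to -0.51 in WT and from -0.73 to -0.63 in Batf3-/- cells. These are not independent readings, since probe sets of a gene can share probes, and the 3 of Rpl41 gave identical changes. Rpl14, Rpl8, Rpl4, Rps3 and Rps27l rested on 1 probe set each.

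Most genes that build ribosomes fell on migration, beside 9 of 53 ribosomal protein genes in WT and 12 of 53 in Batf3-/- cells. Of 68 ribosome biogenesis genes 57 fell and 1 rose in WT, with a median of -1.22, and 53 fell and 1 rose in Batf3-/- cells, with a median of -1.07. Over all genes tested 33.2% fell and 16% rose in WT, and 22.6% fell and 14.1% rose in Batf3-/- cells. Fbl, the methyltransferase of box C/D particles, fell in both genotypes, with changes of -2.59 (SE 0.22) in WT and -2.13 (SE 0.20) in Batf3-/- cells, and so did Nop58, of the same particles, with -2.35 (SE 0.20) and -2.32 (SE 0.18). Sdad1 changed by -2.68 and -3.28. With the array SD as a term, 10 biogenesis genes fell and 1 rose in WT (median -0.81) and 49 fell and 2 rose in Batf3-/- cells (median -0.76). With scaled arrays 53 fell in WT and 52 in Batf3-/- cells. How many of all genes passed under these 2 settings is not given here, so these counts do not set the list apart. The sign of the biogenesis median was thus negative under these settings, whereas that of the members was not fixed in WT.

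The other translation lists are given beside the 33.2% of all genes that fell and 16% that rose in WT, and the 22.6% and 14.1% in Batf3-/- cells. Of 30 initiation factors 19 fell and none rose in WT (median -0.66), and 10 fell and 1 rose in Batf3-/- cells (median -0.34). Eif4g3, a scaffold of the cap-binding complex, changed by -2.18 (SE 0.20) and -2.38 (SE 0.18). Of 13 genes listed by an elongation factor symbol or as other TOP genes 5 fell in WT and 4 in Batf3-/- cells, and none rose in either. Eef2, the translocase, fell by 1.70 (SE 0.30) in WT. Eef1e1, which is listed by its symbol and is not itself an elongation factor, changed by -2.06 and -1.87 in the 2 genotypes. Of 77 mitochondrial ribosomal protein genes 8 rose and 18 fell in WT (median -0.22), and 6 rose and 21 fell in Batf3-/- cells (median -0.27). Of 7 ribosomal protein genes or relatives outside the symbol rule, 2 rose and 3 fell in WT, and none rose and 1 fell in Batf3-/- cells. Rpl7l1, a relative of Rpl7, fell in both, with changes of -1.16 (SE 0.24) and -0.72 (SE 0.21). The stalk proteins Rplp0 and Rplp1 fell in WT, with changes of -0.47 (SE 0.15) and -0.39 (SE 0.14), while Rplp2 rose by 0.49 (SE 0.17) and Fau, fused to the small-subunit protein eS30, by 0.34 (SE 0.12).

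Among the genes that control ribosomal protein synthesis, 11 of 29 fell and 4 rose in WT, and 8 fell and 6 rose in Batf3-/- cells. In WT these counts are near the shares of all genes given above, so they are no result about the list, and single genes are given as such. Myc, which drives transcription of ribosome genes, changed by -1.26 (SE 0.30) in WT and -2.24 (SE 0.27) in Batf3-/- cells. Larp1, which binds TOP mRNAs, changed by -1.98 (SE 0.25) and -1.12 (SE 0.23), and Eif4ebp1, the translation repressor that mTOR phosphorylates, by -1.22 (SE 0.16) and -1.01 (SE 0.14). Mtor itself fell by 0.95 (SE 0.32) in WT and read -0.40 (SE 0.29) in Batf3-/- cells, which did not pass. Castor2, a paralog of the arginine sensor upstream of mTOR complex 1, rose by 1.39 (SE 0.44) and 2.31 (SE 0.39).

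**Figure D4:**
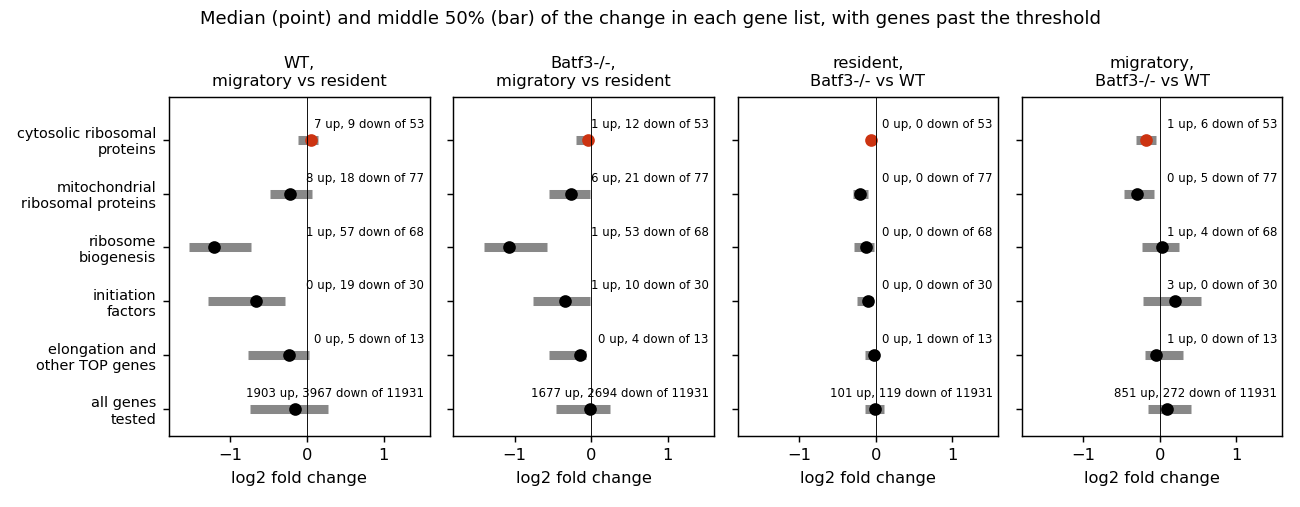
Median (point) and middle 50% (grey bar) of the log2 fold change in 5 gene lists and in all genes tested for 4 SDLN comparisons, with the number of genes that rose and fell out of those tested. The ribosomal protein medians run from -0.18 to 0.05 while the ribosome biogenesis medians are -1.22 and -1.07 on migration.

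Loss of Batf3 changed no member in resident SDLN DC1 (0 of 53 at an adjusted p under 0.05 in limma), where 1.84% of all genes passed. At an unadjusted p under 0.05 no member was higher and 2 were lower, where 9.61% of all genes passed in either direction. The differences leaned one way and were small: 48 of 53 members were below 0, against 52.4% of all genes, with a median of -0.06, the same as the -0.06 of the 10% brightest genes. Of 77 mitochondrial ribosomal protein genes 66 were below 0, with a median of -0.20. In 11 members every Batf3-/- array was below every WT array, which held for 11.2% of all genes, and in none was every one above, which held for 8.61%. Rps4l, a copy of Rps4x, read 6.63, 7.11 and 6.89 in WT and 6.58, 6.30 and 6.23 in Batf3-/- resident cells, a difference of -0.51 (SE 0.17, adjusted p = 0.233 in limma). Rps27l differed by -0.32 (SE 0.13, adjusted p = 0.398). The array SD term brought 1 member past the threshold and array weights 2, all lower, and the share of all genes passing there is not given here.

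In migratory DC1, loss of Batf3 went with 7 of 53 members, 1 higher and 6 lower, where 9.41% of all genes passed, 7.13% higher and 2.28% lower. The median member difference was -0.18, against 0.10 for all genes and 0.18 for the 10% brightest, and 45 of 53 members were below 0, as were 40.4% of all genes. The lean was not particular to members. Of 77 mitochondrial ribosomal protein genes 62 were below 0, with a median of -0.30. Rpl36 read 10.96 and 10.77 in WT and 9.95, 10.26 and 10.34 in Batf3-/- cells, a difference of -0.68 (SE 0.16, adjusted p = 0.0250 in limma). Rpl41 read 11.82 and 11.57 and then 11.10, 11.05 and 11.30 (difference -0.54, SE 0.11). Rpl24 read 10.63 and 10.54 and then 9.95, 10.12 and 10.25 (difference -0.48, SE 0.14). These are genes that rose on migration in WT, and their Batf3-/- migratory arrays lay below both WT migratory arrays. That held for 1479 of 11931 genes tested. Rpl12 differed by -1.35 (SE 0.26), Rps25 by -0.45 (SE 0.11) and Rps29 by -0.41 (SE 0.09), all genes that fell on migration in Batf3-/- cells. Among these, Rpl12 passed the intensity filter only through groups other than Batf3-/- migratory cells, so its call supports nothing here. Rps2 was higher, at 12.49, 12.35 and 12.48 against 11.99 and 12.23 in WT (difference 0.33, SE 0.09). The comparisons of migration and of Batf3 loss share the migratory arrays.

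This count rested on single arrays and on the scale. Batf3-/- migratory replicate 3, with the lowest SD of its group, was above the other 2 replicates in 45 of 53 members and nearer than either to the WT migratory mean in 39. Its median member lay 0.06 below that mean, against 0.24 and 0.25 for replicates 1 and 2. Without it 23 members passed, 1 higher and 22 lower. Without replicate 1 of that group 2 passed, without replicate 2 none, without WT migratory replicate 1 only 1, and without WT migratory replicate 2 there were 3. With arrays scaled to 1 SD 30 members were lower and none higher (median -0.57), and with the array SD as a term none passed (median -0.01). The share of all genes passing in these fits is not given here, so the counts do not set members apart from the whole table.

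In spleen no member differed in any of 3 comparisons (0 of 56 at an adjusted p under 0.05 in limma, and 0 under every alternative run). The median SE of a member was 0.15 for Batf3 loss and 0.18 in the other 2 comparisons, and with so few genes passing in all, changes of the size seen in the SDLN may not have been detectable. Between Batf3-/- and WT Irf8VENUS+ DC1, where 0.738% of all genes passed, 2 members were lower and none higher at an unadjusted p under 0.05 (10.4% of all genes), and the median difference was -0.04. Between WT Irf8VENUS+ and Irf8VENUS- DC1, where 0.0233% passed, 3 members had an unadjusted p under 0.05, all higher, beside 7.91% of all genes (median 0.01), and between Batf3-/- Irf8VENUS+ and WT Irf8VENUS- DC1, where 0.559% passed, 1 did, also higher, beside 9.25% (median -0.04). Rps4l was lowest in adjusted p for Batf3 loss, at 7.28, 6.98 and 7.14 in WT Irf8VENUS+ and 6.85, 6.74 and 6.62 in Batf3-/- cells, a difference of -0.40 (SE 0.16, adjusted p = 0.428 in limma). All 3 Batf3-/- arrays lay below all 3 WT Irf8VENUS+ arrays of that gene, which held for 844 of 12875 genes tested. The same was seen in resident SDLN cells, and neither difference passed. The WT Irf8VENUS- arrays read 6.59 and 6.79, level with the Batf3-/- arrays (difference 0.07, SE 0.18). Rps25 was higher in WT Irf8VENUS+ (9.77, 9.41 and 9.36) than in Irf8VENUS- cells (8.71 and 9.02), by 0.63 (SE 0.23, adjusted p = 0.587). Rpl17 differed by -0.65 with Batf3 loss (SE 0.27, adjusted p = 0.454), with overlapping groups.

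Single spleen arrays held many of the extreme values of the members. WT Irf8VENUS+ replicate 1 held the lowest value of 18 of 56 members and the highest of 12. Rpl32, for example, read 9.91 there and 11.64 to 12.23 on the other 7 arrays, the widest range of a member in spleen (2.32). Rps4x read 9.43 against 9.99 to 10.77, and Rpl9 7.91 against 8.83 to 9.26. Batf3-/- replicate 3 was lowest in 12 members, among them Rpl10a, at 9.52 against 9.96 to 10.86, and Rps16, at 3.66 against 4.97 to 5.37. Rps6 varied least of all members in spleen, over 0.15 log2 units. Without WT Irf8VENUS+ replicate 1 the median member difference with Batf3 loss was -0.06 and without replicate 3 of that group 0.03. Within the CD24 gate, with 1 array a group, the median member difference was -0.17, and within the CD24 and XCR1 gate it was 0.03.

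**Figure D5:**
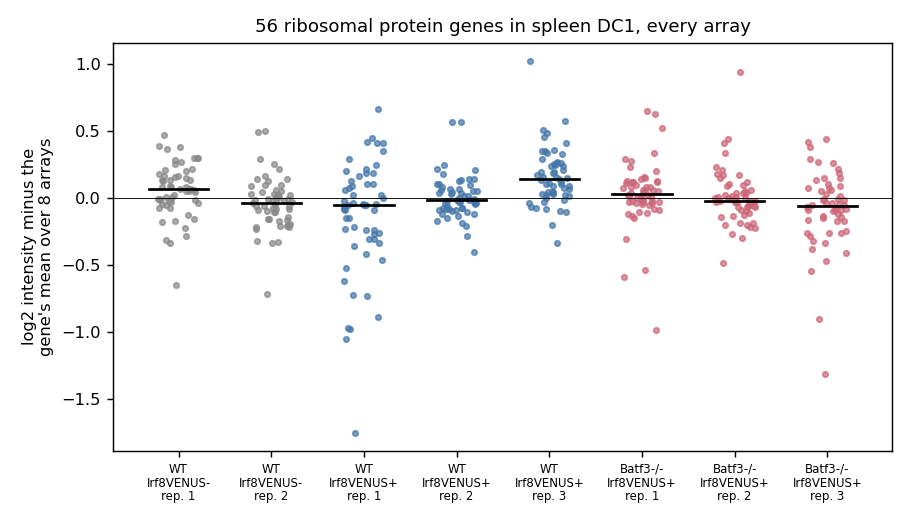
Log2 intensity of each of 56 members minus that gene's mean over the 8 spleen arrays (vertical axis), by array; points are genes and black bars medians. The medians lie between -0.06 and 0.14, and WT Irf8VENUS+ replicate 1 has the widest scatter, with Rpl32 lowest.

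Members known for roles in disease or signalling were also read one by one, and Rpl5, Rps19 and Rps6 passed in no comparison. Rpl5, which with Rpl11 and the 5S rRNA binds the p53 regulator MDM2, read 12.10, 12.15 and 12.10 in WT resident and 12.05 and 12.05 in WT migratory DC1, and differed by -0.06 (SE 0.10). Rps19, known from Diamond-Blackfan anaemia, differed by 0.14 (SE 0.14) in WT and 0.24 (SE 0.13) in Batf3-/- cells on migration. Rps6 differed by 0.03 (SE 0.08) and -0.06 (SE 0.07). Of the X-linked members of the SDLN table, Rpl10 fell in both genotypes, Rps4x in WT, where its Batf3-/- groups read 12.28 ± 0.14 and 12.15 ± 0.08 (SD, n = 3), and Rpl36a passed in neither, at 11.39 ± 0.07 (n = 3) in WT resident and 11.60 ± 0.07 (n = 2) in WT migratory cells. Rpl29 varied least of all SDLN members, over 0.15 log2 units, and Rpl39l most, over 2.55.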

How the data were processed

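The authors deposited a table of 11 SDLN arrays and another of 8 spleen arrays. The deposited SDLN values are log2 intensities. The deposited spleen values are linear intensity values, of which log2 was taken. RMA, with no version named, is the method listed per the submitters' processing notes. The tables were tested separately. Probe sets with 1 symbol were used, symbols were updated through a RefSeq table (GRCm38.p6), and each gene was read from its brightest probe set.

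Genes with 2 or more arrays at or above the median intensity of the table were kept, which left 11931 SDLN and 12875 spleen genes. The tests were those of limma 3.58.1 (R 4.3.3), with lmFit and a trended eBayes, on all arrays of a table, with the sort gate as a term in spleen, and Benjamini-Hochberg adjustment over all genes tested. Scripts were tested on simulated data. The number of arrays limits the precision, and no background measure per probe was given.

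SDLN titles share a code across groups. It was checked whether arrays of the same code deviated together from the means of their groups over all genes tested. In Batf3-/- resident and migratory arrays the correlations were 0.42, 0.21 and 0.48, all over 0.1. Pairs of different codes in these groups ran from -0.45 to 0.22, so the 0.21 does not stand apart. The code may pair these arrays, but the correlations do not settle it. The values given come from the fit without a block, and a fit with the code as a block was an alternative to each SDLN test.

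The members and lists were chosen with earlier results of these data known. The genes named were the 8 called members with the largest change each way in each comparison, the brightest and dimmest 3, copies whose symbol ends in l, X-linked members, Rpl5, Rpl11, Rps19 and Rps6, and called genes of each list. Others were named after their values were seen. The alternatives were other filters and normalizations, scaled arrays, array SD as a term, array weights, the mean of a gene's probe sets, blocks, fewer groups, and leaving out each array.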

Additional observations from a re-analysis of the deposited data

How the results depend on the processing

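The direction and call of the members depended most on array scale. In WT, migratory against resident, the number of members that passed was 16, and 36 with arrays centred and scaled to 1 SD (median 0.60, 35 higher and 1 lower), and 0 with the array SD as a term (median -0.25). The median was 0.17 with quantile and 0.16 with cyclic loess normalization, with 15 higher and 7 lower in both. Scaled arrays turned the sign of Rpl10 (0.13), Rpl28 (0.016), Rpl6 (0.24), Rps2 (0.12), Rps3 (0.054) and Rps4x (0.28) in WT, and of Rps2 (-0.082) in the migratory Batf3 comparison. The array SD term turned Rpl32l (-0.66), Rpl36 (-0.038), Rpl38 (-0.17), Rpl39l (-1.42), Rpl41 (-0.033) and Rps27l (-0.0043) in WT. In Batf3-/- cells scaled arrays gave 7 members (median 0.078, 2 higher and 5 lower), and the array SD term a median of -0.16. For Batf3 loss in resident cells the array SD term gave 1 member and array weights 2. For Batf3 loss in migratory cells scaled arrays gave 30 (median -0.57), the array SD term 0 (median -0.0051), array weights 17, and the fit on only the groups compared 0. Leaving out 1 array gave 0 to 23 there. For the difference of the migration changes, scaled arrays gave a median of -0.53 and the array SD term 0.061, array weights 3 members, and leaving out 1 array 0 to 6. Leaving out 1 array gave 11 to 16 members in both migration comparisons. The cause was not tested in any of these cases. These are counts of members alone, and the share of all genes passing under each setting is not given beside them.

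With the title code as a replicate block 16 members passed in WT and 12 in Batf3-/- cells on migration, 0 with Batf3 loss in resident cells, 12 in migratory cells in place of 7, and 0 in the difference. The share of all genes passing in the block fit is not given here, so these counts do not set members apart from the whole table. Same-code pairs that involved WT arrays had correlations of -0.16 to 0.25, so pairing by code was not shown there. In spleen the replicate block gave 0, as did each other alternative. With 2 or 3 arrays a group and intensities near the floor for the dimmest members, small changes and dim genes are the least certain.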
